A study of Mus musculus with 12 samples.

Results

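Tnf, the interleukin-1 genes Il1a, Il1b and Il1rn, Osm and Tnfsf9 are 6 of the 24454 genes whose expression was measured in leukemic blasts with and without STAT3β, the shorter splice isoform of the transcription factor STAT3. They were taken by symbol, and they were chosen on the differences between genotypes and organs in these same libraries. Their differences are therefore given as a description, and counts of members past a threshold carry no weight of their own. Fetal liver cells of wild-type (WT) or STAT3β-deficient (Δβ) mice were transformed with a retrovirus that encodes the MLL-AF9 fusion and a Venus reporter, and were injected into young adult male NSG mice. All groups thus share the MLL-AF9 transgene, the reporter and the host strain, which lacks its own T, B and NK cells but keeps host myeloid cells and stroma. Venus-positive blasts were sorted from the spleen (SP) and bone marrow (BM) of diseased animals, and poly-A RNA was sequenced in 3 libraries for each of the 4 groups WT SP, Δβ SP, WT BM and Δβ BM, 12 libraries in all. No source used here says which libraries share an animal or a transformed line, so the spread between libraries may hold less than the spread between animals.

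Tnf encodes tumor necrosis factor, which is cut from the surface of myeloid cells and activates NF-kB through its receptors. Il1a and Il1b encode the agonists of the interleukin-1 receptor, and Il1rn encodes the antagonist that occupies the same receptor without signaling. Osm encodes oncostatin M, a cytokine of the interleukin-6 family that signals through gp130 and the kinases of the JAK family to STAT3. Tnfsf9 encodes 4-1BB ligand, a membrane protein of the TNF superfamily that costimulates lymphocytes. Messages of such cytokines are made quickly and decay quickly, in many cases through AU-rich elements in the 3′ UTR to which decay factors such as the protein of Zfp36 bind.

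Positions are those of GRCm38 in the GENCODE M21 annotation. Tnf (Entrez 21926) has 4 exons on chromosome 17 (minus strand), 35199381 to 35202007, between the lymphotoxin genes Ltb and Lta. Tnfsf9 (Entrez 21950) is on the plus strand of the same chromosome from 57105325 to 57107757, beside Cd70. Il1a (Entrez 16175, 129299610 to 129309972) and Il1b (Entrez 16176, 129364570 to 129371139) are neighbors on the minus strand of chromosome 2, 54597 bases apart, and Il1rn (Entrez 16181) is on its plus strand from 24336853 to 24351494. Osm (Entrez 18413) is on the plus strand of chromosome 11 from 4236420 to 4241026, beside Lif. Il1b overlaps the antisense gene Il1bos, Il1a overlaps Gm14023 and Tnfsf9 overlaps Gm11110, each on the opposite strand. Whether the counting used strand is not given in the sources used here, so reads of these pairs cannot be told apart.

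The 3′ UTRs of the members differ in their AU-rich pentamers, which are shown because the list of message decay genes is measured further on. A search for ATTTA on the message strand of the coding transcript with the longest 3′ UTR, overlapping matches included, found 8 in Tnf, 6 in Osm, 4 in Il1b, 3 in Il1a, 2 in Tnfsf9 and 0 in Il1rn. The 3′ UTR of Il1rn is 1864 bases and that of Tnf is 764 bases. Over the 10762 tested genes with a 3′ UTR the median was 2 pentamers, 70% had 1 or more and 13.9% had 7 or more. The overlapping form ATTTATTTA was present 2 times in Tnf and 1 time in Il1b, and in 6.54% of those genes. The windows of 30 bases with the most pentamers, all within the last exon, are printed 5′ to 3′ on the gene's strand with ATTTA in capitals.
Tnf 3′ UTR, chr17:35199679-35199708, minus strand: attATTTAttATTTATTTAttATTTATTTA
Il1b 3′ UTR, chr2:129364808-129364837, minus strand: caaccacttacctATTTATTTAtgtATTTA
Osm 3′ UTR, chr11:4240939-4240968, plus strand: aatccgttttatATTTAtaaggcctATTTA
The Tnf window holds 5 pentamers, the Il1b window 3 and the Osm window 2. No stretch of the Il1rn 3′ UTR is shown, since it holds none.

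**Figure D1:**
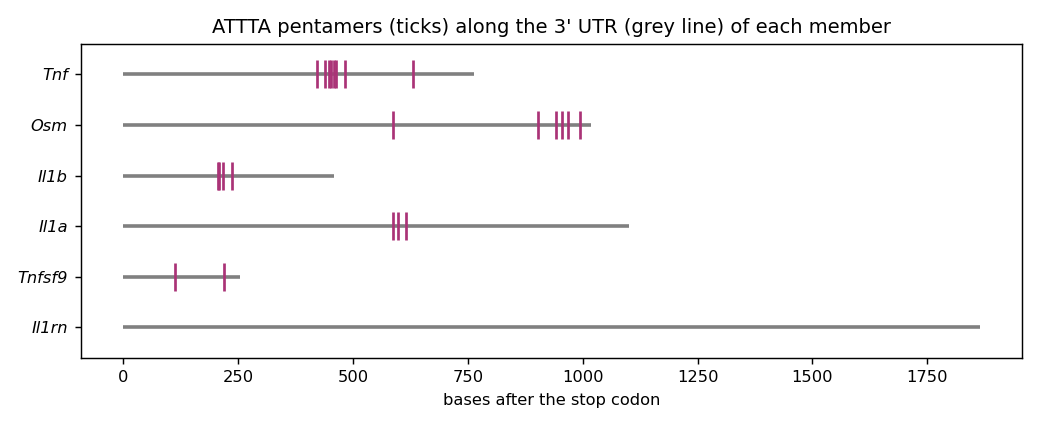
Position of each ATTTA pentamer (ticks) along the 3′ UTR (grey lines) of the 6 genes, in bases after the stop codon on the horizontal axis. The 8 pentamers of Tnf lie from 421 to 631 bases, 5 of the 6 of Osm lie from 903 to 994 bases, and Il1rn has none over 1864 bases.

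RefSeq promoter windows (GRCm38.p6, 250 bases before to 50 after the start) were matched for 4 of the 6 genes, Tnf, Il1a, Il1b and Il1rn. TATAAA stood on the gene's strand with its first base 29 bases before the start in Tnf, 31 before it in Il1b and 32 before it in Il1a. TATAAA was found on either strand in 13.6% of 32851 windows of this length, and on the gene's strand 35 to 20 bases before the start in 1.84%. In Il1rn, no window held it before the start. TGANTCA was found 12 bases before the Il1a start and 141 bases before the first Il1rn start, against 7.81% of all windows, and neither TTCNNNGAA (8.3%) nor the NF-kB consensus (4.51%) had a match in the windows of these genes. Both strands were searched, and TGANTCA reads the same on each. The bases before the start are printed 5′ to 3′ on the gene's strand for Tnf and for Il1b and Il1rn, the agonist and the antagonist, with TATAAA or TGANTCA in capitals.
Tnf, chr17:35202008-35202257, minus strand: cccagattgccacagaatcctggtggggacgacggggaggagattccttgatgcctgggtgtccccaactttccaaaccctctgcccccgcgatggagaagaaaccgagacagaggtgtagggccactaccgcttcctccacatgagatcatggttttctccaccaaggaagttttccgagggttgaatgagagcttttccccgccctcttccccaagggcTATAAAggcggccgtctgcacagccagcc
Il1b, chr2:129371140-129371389, minus strand: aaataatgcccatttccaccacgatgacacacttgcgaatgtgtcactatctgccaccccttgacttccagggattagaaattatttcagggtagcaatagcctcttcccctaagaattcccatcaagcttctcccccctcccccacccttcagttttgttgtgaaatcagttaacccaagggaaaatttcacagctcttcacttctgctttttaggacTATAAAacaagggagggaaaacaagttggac
Il1rn, chr2:24336610-24336859, plus strand: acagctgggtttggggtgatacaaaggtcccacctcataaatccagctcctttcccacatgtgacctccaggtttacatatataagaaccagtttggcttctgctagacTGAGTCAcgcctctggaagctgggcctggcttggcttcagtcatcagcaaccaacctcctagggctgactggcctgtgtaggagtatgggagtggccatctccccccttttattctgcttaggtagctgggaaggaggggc
A match to these letters is a description of the window only.

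Depth was 9001051 to 13859727 reads on genes per library, and 1 read was worth 0.775 to 1.17 normalized counts, the deposited unit, in which a library's gene counts are scaled by its size factor. A count of 3 reads was taken as the floor of detection, which covers counting error only. WT SP replicate 3 stood apart from WT SP replicates 1 and 2 in several members and in many other genes, so the log2 differences of the members that rest on WT SP, and the medians of the gene lists in SP, are given with and without it. This library was singled out by its values, so calls made without it are a description only. Stat3 as a whole had normalized counts of 2977 to 4430 (WT SP), 2674 to 3236 (Δβ SP), 2714 to 3201 (WT BM) and 2349 to 3228 (Δβ BM), and values per gene cannot separate the β isoform, so they do not check the genotype. Markers of MLL-AF9 blasts, 10 of 10 genes, summed to 36643 to 82590 in every library, but some of these genes differed within WT SP. Mpo, the highest of them by mean, had 5947, 5256 and 40587 in WT SP and 25775 to 53209 in Δβ SP. Hoxa9 had 798, 2060 and 2671 in WT SP, and Itgam had 26293, 21981 and 10941. The ribosomal RNA precursor Rn45s took 0.725 to 2.48% of normalized counts in WT SP and 0.178 to 0.655% elsewhere. All 4 hemoglobin genes were listed at 0 in every library, although other erythroid genes were counted.

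Tnf was high in all 3 WT SP libraries and low in all 3 Δβ SP libraries. The WT SP values were 699.7, 705 and 463 normalized counts (replicates 1, 2 and 3) and those of Δβ SP were 106, 173 and 106. For BM the values were 373, 576 and 635 in WT and 409, 224 and 292 in Δβ. The lowest WT SP library thus lay above the highest Δβ SP library, while in BM the lowest WT library lay below the highest Δβ library. The ratio of group means, WT over Δβ, was 4.86 in SP and 1.71 in BM. Tnf did not stand out between organs in WT blasts, with a ratio of 1.18 for SP over BM, whereas all 3 Δβ SP libraries lay below all 3 Δβ BM libraries, with a ratio of 2.41 for BM over SP. On the log2 scale (normalized count plus a pseudocount of 1, standard error from limma) the Δβ minus WT difference was -2.28 (standard error 0.29) in SP and -0.78 (0.29) in BM, and the SP minus BM difference was 0.25 (0.29) in WT and -1.26 (0.29) in Δβ. The genotype difference in SP minus that in BM was -1.50 (0.42). Without WT SP replicate 3, Tnf differed by -2.48 between genotypes in SP and by 0.45 between the WT organs, and the difference of the genotype effects was -1.70. In bulk RNA, fewer cells that express a gene and less of its RNA per cell cannot be told apart.

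Il1b followed another pattern, in which the WT SP libraries did not form a group. Its normalized counts were 1077 and 539 for WT SP replicates 1 and 2 but 67.0 in WT SP replicate 3, which is below each of the Δβ SP libraries with 81.4, 151 and 87.5. In BM the WT libraries had 34.7, 13.5 and 63.4 normalized counts and the Δβ libraries 130.5, 49.1 and 11.4. The 2 highest libraries of the 12 were both WT SP, and all other libraries lay at 151 or below. The ratio of the highest to the lowest library was 94.5, against 6.67 for Tnf. The log2 difference was -1.72 (standard error 1.04) for Δβ minus WT in SP and 3.40 (1.04) for SP minus BM in WT. Without WT SP replicate 3 these became -2.88 and 4.57, and without WT SP replicate 1 they became -0.89 and 2.57. For Il1b the genotype difference in SP minus that in BM was -2.15 (1.47), or -3.31 without WT SP replicate 3. In BM the genotype difference was 0.43 (1.04), with the Δβ libraries on both sides of the WT ones.

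Il1rn, the antagonist, shared the split within WT SP. Its WT SP replicates 1, 2 and 3 had 587, 561 and 129 normalized counts, and its Δβ SP replicates had 213, 177 and 139. Here too WT SP replicate 3 was the lowest of the 6 SP libraries. In BM, Il1rn had 240.1, 99.1 and 297 in WT and 328, 109.8 and 59.0 in Δβ, and the genotypes overlapped. The log2 difference of Δβ minus WT in SP was -1.0 (standard error 0.70), or -1.72 without WT SP replicate 3. In BM it was -0.57 (0.70), and the SP minus BM difference was 0.86 (0.70) in WT, or 1.57 without WT SP replicate 3, and 0.43 (0.70) in Δβ. Without WT SP replicate 1 the genotype difference in SP was -0.63.

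Osm was high in WT SP replicates 1 and 2, with 744 and 737 normalized counts, and lower in WT SP replicate 3, with 212. The Δβ SP replicates had 160.4, 244 and 169.7 normalized counts, so that WT SP replicate 3 lay inside their range. In BM the libraries spread widely in both genotypes, with 101, 121 and 334 in WT and 442, 100.5 and 339 in Δβ. Δβ minus WT was -1.37 (standard error 0.65) on the log2 scale in SP and 0.63 (0.65) in BM. The SP difference was -1.97 without WT SP replicate 3, -1.07 without WT SP replicate 1 and -1.08 without WT SP replicate 2. For SP minus BM the values were 1.60 (0.65) in WT and -0.39 (0.65) in Δβ, and the genotype difference in SP minus that in BM was -2.0 (0.91). Without WT SP replicate 3 the last value was -2.60 and the WT organ difference 2.20. Without WT SP replicate 1 these 2 values were -1.69 and 1.30, and without WT SP replicate 2 they were -1.70 and 1.31.

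Tnfsf9 was a low gene that overlapped between all groups. Normalized counts were 37.6, 12.7 and 6.09 in WT SP, 20.2, 12.3 and 4.27 in Δβ SP, 13.9, 13.5 and 12.1 in WT BM, and 25, 11.7 and 6.21 in Δβ BM. These rest on 4 to 33 reads per library. Its log2 differences lay between -0.45 and 0.14 over the genotype and organ comparisons, each with a standard error of 0.72. Their sign rested on single libraries, since Δβ minus WT in SP was -1.01 without WT SP replicate 3 and 0.21 without WT SP replicate 1, and SP minus BM in WT was 0.70 and -0.52 in the same fits. Il1a was at the limit of detection, with 4, 1 and 0 reads in WT SP, 3, 2 and 1 in Δβ SP, 7, 3 and 2 in WT BM and 2, 0 and 0 in Δβ BM. It did not pass the filter of a mean of 10 normalized counts, and no fold is given for it. The gene that overlaps Il1a on the other strand, Gm14023, had 4.24 to 11.7 normalized counts, above Il1a in each library.

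**Figure D2:**
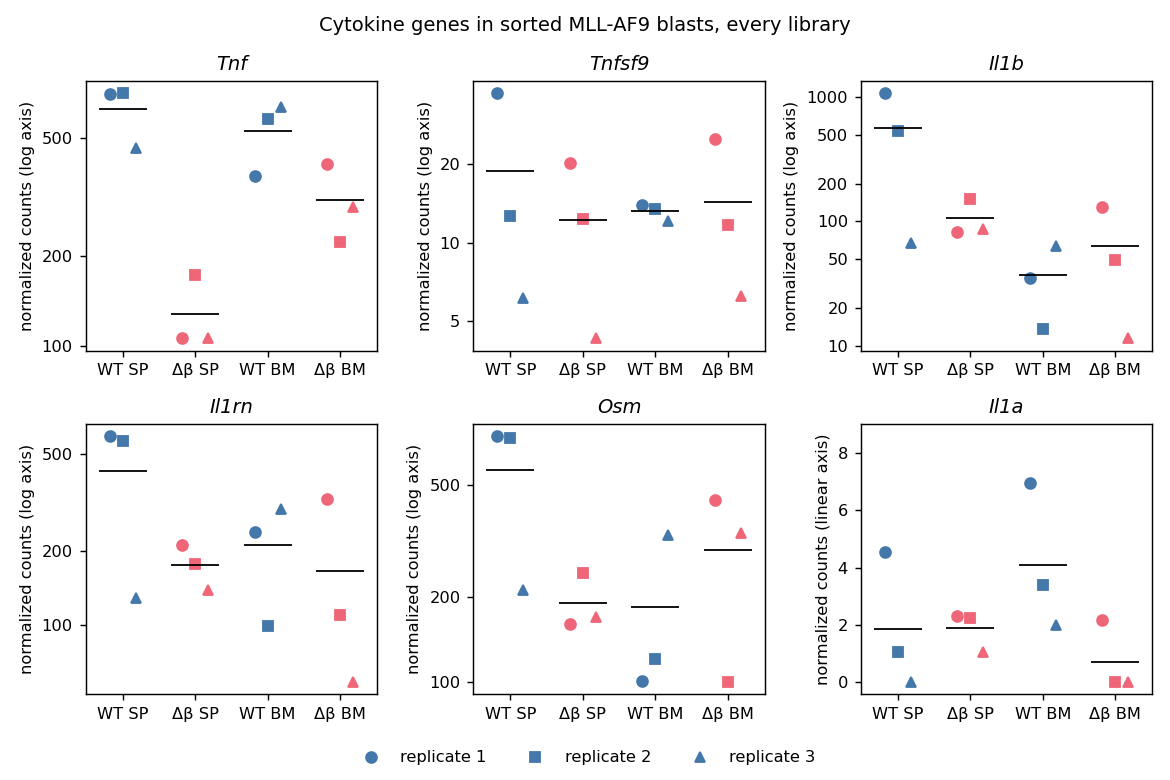
Normalized counts of the 6 genes in each of the 12 libraries, by group on the horizontal axis. Symbols are replicates 1 to 3 of the labels, black lines are group means, and the vertical axes are logarithmic except for Il1a. Tnf separated WT SP (463 to 705) from Δβ SP (106 to 173), whereas WT SP replicate 3 (triangle) lay among or below the Δβ SP libraries for Il1b, Il1rn and Osm.

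Of the 5 members above the filter, Tnf was the only 1 past an adjusted p of 0.05 of limma, in the comparison of Δβ with WT in SP, where 12 of 11476 genes (0.105%) were past it. In BM 8 genes were past it (0.0697%), and in the other 3 comparisons, SP against BM in WT (0%), SP against BM in Δβ (0%) and the difference of the genotype effect between organs (0%), there were 0, with 949, 203 and 367 genes at an unadjusted p under 0.05. edgeR's quasi-likelihood test called 0 genes in each of the same 3, and DESeq2 called 106, 2 and 5. The Tnf difference in SP was no longer past the threshold without WT SP replicate 1 (-2.19), without WT SP replicate 2 (-2.18), and without Δβ SP replicate 1 or 3 (-2.17 each). It was also lost without WT BM replicate 2 or Δβ BM replicate 3, which only enter the shared estimate of the spread and leave the difference at -2.28. The call was also lost with a pseudocount of 0.25 (-2.29), with only the libraries compared (-2.28) and with a block for the replicate number (-2.28). The difference itself stayed between -2.52 and -2.17 over the 12 fits that leave out 1 library, of which only those without an SP library can move it. As to groups without overlap, Tnf was lower in Δβ SP than in WT SP (9.37% of tested genes were lower without overlap, 7.92% higher) and lower in Δβ SP than in Δβ BM (4.51% lower, 2.92% higher). Il1b was higher in WT SP than in WT BM (5.66% higher, 5.80% lower), by the margin between 67.0 and 63.4 normalized counts. No member was without overlap between the genotypes in BM (3.50% higher, 4.13% lower). The same comparisons chose the members, so nothing is read from these counts.

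Without WT SP replicate 3, the fit put 1884 of 11476 genes (16.4%) past the threshold in SP and 598 (5.21%) between SP and BM in WT. Il1b joined Tnf in SP, and Il1b alone of the members was past it between the WT organs. DESeq2 on the recovered reads of all 12 libraries called 479 genes in SP (4.18%), Tnf among them, and 106 between SP and BM in WT (0.925%), Il1b among them. The residual spread about the group means separates the members in the same way. It was 0.40 on the log2 scale for Tnf, 0.91 for Osm, 0.93 for Tnfsf9, 0.98 for Il1rn and 1.47 for Il1b, against a median of 0.27 over all tested genes, and 98.1% of tested genes had less spread than Il1b.

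**Figure D3:**
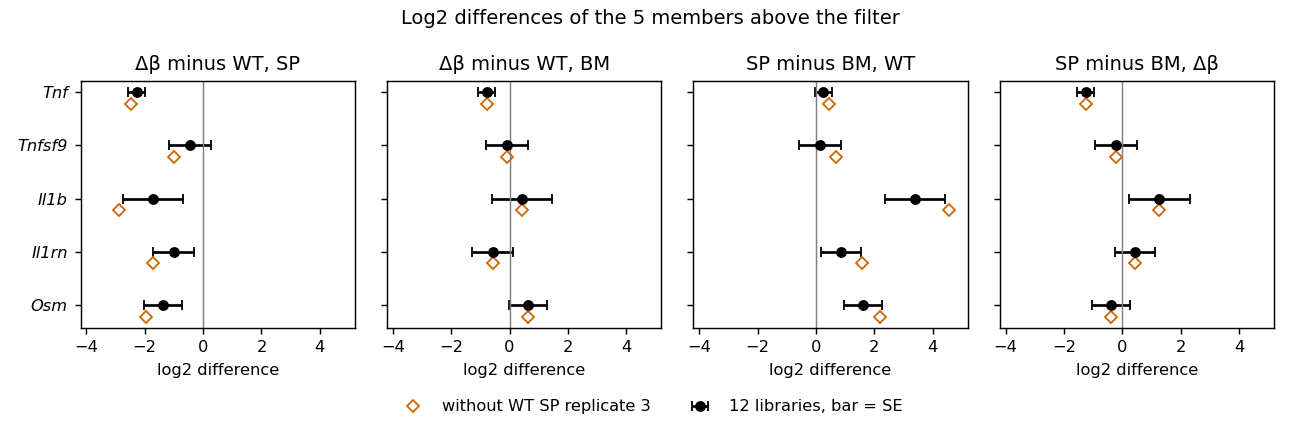
Log2 differences of the 5 members above the filter in 4 comparisons, with zero marked by a grey line. Black points are the fit of all 12 libraries with its standard error as a bar, and open diamonds leave out WT SP replicate 3. Tnf (-2.28) has a short bar in SP, and the diamonds of Il1b lie further from zero, at -2.88 in SP and 4.57 between SP and BM in WT.

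Where the labels' numbers pair SP with BM, which the data bear out for Δβ alone, the members can be read within a number. Tnf was lower in SP than in BM in 3 of 3 Δβ numbers, at 106 against 409, 173 against 224 and 106 against 292 normalized counts. Any pairing would give this for Tnf, since its Δβ SP and Δβ BM libraries did not overlap, as for 4.51% of tested genes in this direction. The pairing thus adds nothing for Tnf. Il1b was lower in SP in number 1 (81.4 against 130.5) and higher in numbers 2 (151 against 49.1) and 3 (87.5 against 11.4). Osm was lower in SP in numbers 1 (160.4 against 442) and 3 (169.7 against 339) and higher in number 2 (244 against 100.5). The members thus had no common direction between organs within Δβ.

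Per kilobase of the transcript, which puts genes of different length on a common scale, the order of the members differed between groups. The transcript with the longest 3′ UTR was taken, of 2474 bases for Il1rn and 1356 for Il1b. The exons of all their transcripts together span 5535 and 1907 bases, so the place of these genes in the order depends on the length taken. In WT BM, Tnf led with a mean of 322 ± 83.9 normalized counts per kb (SD, n = 3), followed by Il1rn (85.7 ± 41.2), Osm (81.6 ± 56.9), Il1b (27.5 ± 18.5) and Tnfsf9 (10.2 ± 0.739). Il1rn, Osm and Il1b overlapped in their spread there. Il1b had the highest mean in WT SP, 414 ± 373 per kb, ahead of Tnf (379.8 ± 84.4), Osm (248 ± 134) and Il1rn (172 ± 104), and these 4 did not differ beyond their spread. Over WT SP replicates 1 and 2 alone the means were 596 for Il1b, 428 for Tnf, 326 for Osm and 232 for Il1rn per kb. In Δβ SP the same 4 genes lay within 71.3 to 84.3 per kb, and in Δβ BM Tnf (188 ± 56.9) and Osm (129 ± 77.2) came before Il1rn (67.0 ± 57.8) and Il1b (46.9 ± 44.9). Tnfsf9 stayed between 9.49 and 14.6 per kb in each group, and Il1a at or below 2.08.

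Ratios within a library do not depend on its size factor. These pairs were chosen after their values were seen. The antagonist Il1rn over the agonist Il1b, both in normalized counts, had the values 0.545, 1.04 and 1.92 in the WT SP libraries and 2.62, 1.17 and 1.59 in those of Δβ SP. In BM the ratio was 6.91, 7.33 and 4.68 in WT and 2.52, 2.24 and 5.18 in Δβ. All WT BM libraries lay above all WT SP libraries, and only WT SP replicate 1 held more Il1b than Il1rn. Osm over Tnf was 1.06, 1.05 and 0.458 in WT SP and 1.51, 1.42 and 1.61 in Δβ SP. In BM it was 0.271, 0.209 and 0.526 in WT and 1.08, 0.448 and 1.16 in Δβ. The Δβ SP libraries had more Osm than Tnf without exception, and their ratios lay above those of each of the other libraries.

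**Figure D4:**
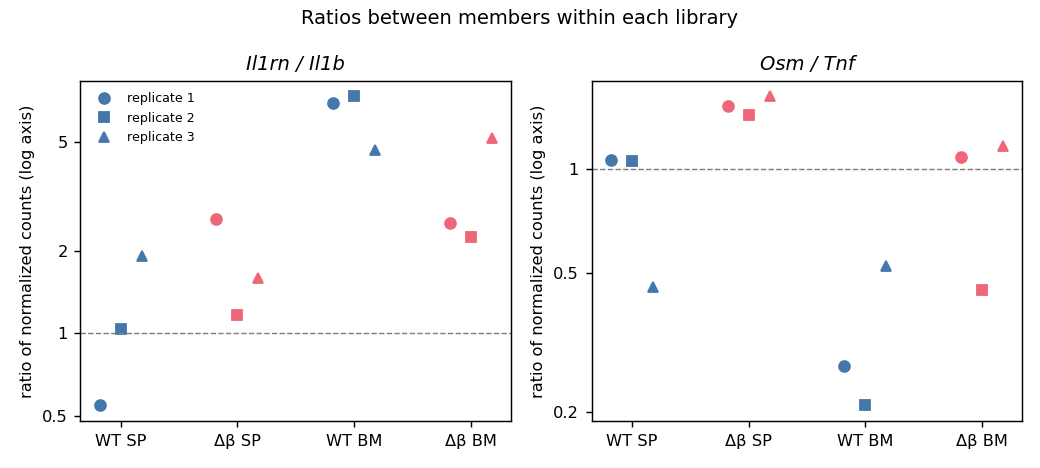
Ratios of normalized counts between members within each of the 12 libraries, Il1rn over Il1b on the left and Osm over Tnf on the right, by group on the horizontal axis. The vertical axes are logarithmic and the dashed line is a ratio of 1. Il1rn over Il1b was 4.68 to 7.33 in WT BM and 0.545 to 1.92 in WT SP, and Osm over Tnf was 1.42 to 1.61 in Δβ SP.

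Across the 12 libraries, Il1b and Il1rn had the highest correlation of the 10 pairs of members, with a Pearson r of 0.86 on the log2 scale (Spearman's rho 0.75). Without the 2 libraries farthest from the Il1b median, WT SP replicates 1 and 2, r was 0.69. Il1b and Osm had an r of 0.69 that came down to 0.27 without those libraries. Il1rn and Osm had an r of 0.63, which was 0.80 without the 2 libraries farthest from the Il1rn median and 0.22 without WT SP replicates 1 and 2. Tnf and Il1b had an r of 0.22, and Tnf and Osm 0.50. These are descriptions over 12 libraries in 4 groups, and they share the same group differences. The genes most like each member by r over the 12 libraries were Arl4d (0.96), Mreg, Gpr137c, Prkcb and Gnai3 for Tnf, and Dusp16 (0.97), Gemin7, Cdc42ep2, Smpdl3b and Helz2 for Il1b. For Il1rn they were Adtrp (0.99), Rala, Orm1, Ngly1 and Atox1. Trib1 (0.97), Dusp1, Eif1, Tollip and Cd14 were the nearest to Osm, and Aco1 (0.94), Cdk20, Arl5a, Fblim1 and Gm15987 to Tnfsf9. Dusp1 encodes a phosphatase of MAP kinases and Cd14 the co-receptor for lipopolysaccharide. No member was among the 5 genes nearest to another member.

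The receptors and the other pathway genes come from 9 lists. They were written from general knowledge but with earlier results of these data known, so their counts and shares are a description only. In no comparison was any of their genes past an adjusted p of 0.05 of limma, and in SP the DESeq2 test called 19 of the 144 different list genes tested (13.2%, against 4.18% of all genes). edgeR called none of them in any comparison. Over all tested genes in SP, 1708 of 11476 (14.9%) had an unadjusted p under 0.05 and 51.9% were lower in Δβ, and the counts of each list are set against these shares. Of the 7 tested receptor genes, 5 were lower and 2 higher in Δβ than in WT SP (median log2 difference -0.44, against -0.01 over all tested genes), with 3 at an unadjusted p under 0.05 (42.9%), and the median was -0.77 without WT SP replicate 3. Tnfrsf1b, the TNF receptor of leukocytes, had 10331, 4991 and 1653 normalized counts in WT SP and 2130, 1368 and 1835 in Δβ SP, which is the same split within WT SP as for Il1b. Tnfrsf1a, the widely expressed TNF receptor, had 3831, 3026 and 1718 in WT SP against 2290, 1770 and 1947 in Δβ SP. The oncostatin M receptor Osmr had at most 4.03 normalized counts in any library and the receptor of 4-1BB ligand, Tnfrsf9, at most 5.44. Both thus lay at or near the floor, whereas the shared receptor chain Il6st had 248 to 988. Lifr, another receptor gene that pairs with Il6st, had 795, 205 and 70 in WT SP and 37.7 to 256 in the other groups.

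Among genes for processing and release, 10 of 16 were lower and 6 higher in Δβ SP (median -0.21, or -0.40 without WT SP replicate 3), with 2 at an unadjusted p under 0.05 (12.5%, below the share of all genes). Adam10, a membrane protease, had 5819, 4355 and 4184 normalized counts in WT SP and 3922, 3442 and 3740 in Δβ SP, and Gsdmd, whose product forms the pore through which interleukin-1β leaves cells, had 3834, 3509 and 2791 against 2966, 3063 and 2838. Of the signal relay genes 27 of 31 were lower in Δβ SP (87.1%, median -0.20, or -0.32 without WT SP replicate 3), and 9 had an unadjusted p under 0.05 (29.0%). Jak1 had 4817, 4138 and 3234 normalized counts in WT SP and 3211, 2800.4 and 2937 in Δβ SP. Tax1bp1, a partner of the ubiquitin editor A20, had 5502, 5280.1 and 7198 against 5750, 5782 and 4576.

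Message decay genes were divided, 10 of 19 lower and 9 higher in Δβ SP (median -0.08, or -0.20 without WT SP replicate 3), and 2 had an unadjusted p under 0.05 (10.5%, below the share of all genes). Zfp36, whose protein binds ATTTA-rich 3′ UTRs such as that of Tnf, had 12466, 11638 and 8779 normalized counts in WT SP and 2988, 5098 and 2240 in Δβ SP. Its log2 difference was -1.74 (standard error 0.49, adjusted p = 0.218 from limma), or -1.89 without WT SP replicate 3. Zfp36 was thus high in the same 3 WT SP libraries in which Tnf was high. In WT BM it had 3588, 2793 and 8836, in libraries with 373, 576 and 635 normalized counts of Tnf. In Δβ BM it had 7134, 2230 and 4192, in libraries with 409, 224 and 292 of Tnf. Hnrnpd, another protein of AU-rich elements, had 5970 to 6729 in WT SP and 6100 to 7723 in Δβ SP.

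Of the other TNF superfamily ligands, 7 of 16 were tested, with 4 lower and 3 higher in Δβ SP (median -0.16, or -0.67 without WT SP replicate 3, 2 at an unadjusted p under 0.05). Ltb, the lymphotoxin gene next to Tnf, had 339.6, 193 and 41.6 normalized counts in WT SP and 41.9, 53.8 and 50.2 in Δβ SP, so it split within WT SP where Tnf did not. Lta, on the other side of Tnf, had at most 2.17, and Cd70, next to Tnfsf9, was listed at 0 in all libraries. Tnfsf14 had 165, 326 and 169 in WT SP against 223, 277 and 236. Tnfsf10, the death ligand TRAIL, named here after its values were seen, went the other way from Tnf, with 4.56, 3.18 and 7.10 normalized counts in WT SP and 49.6, 40.3 and 11.7 in Δβ SP (log2 difference 2.38, standard error 0.71, adjusted p = 0.222 from limma and 0.0298 from DESeq2). The Tnfsf10 difference was 2.63 without WT SP replicate 3.

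Other genes of the interleukin-1 family were lower in Δβ SP in 5 of 6 tested (median -0.27, or -0.49 without WT SP replicate 3, 1 at an unadjusted p under 0.05). Il18rap, a chain of the interleukin-18 receptor, had 1347, 2244 and 941 normalized counts in WT SP and 654, 661 and 835 in Δβ SP, and Sigirr, a damping receptor, had 369, 329.6 and 266 against 277, 248 and 240. In the list of other interleukin-6 family ligands 4 genes were tested, Lif, Clcf1, Il27 and Ebi3, of which Il27 and Ebi3 encode subunits of 1 cytokine. All 4 were lower in Δβ SP (median -1.11, or -1.13 without WT SP replicate 3, 0 at an unadjusted p under 0.05). Ebi3 had 642, 923 and 584 normalized counts in WT SP against 576, 478 and 585 in Δβ SP. Lif, the neighbor of Osm, had 29.6, 23.3 and 72.1 in WT SP and 6.98, 57.1 and 9.61 in Δβ SP, and was thus highest in the WT SP library in which Osm was lowest. Il6 itself had at most 1.14 normalized counts.

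NF-kB targets of TNF and IL-1 were lower in Δβ SP in 36 of 39 tested genes (92.3%, median -0.44, or -0.88 without WT SP replicate 3), and 13 had an unadjusted p under 0.05 (33.3%). Lcn2, a neutrophil protein that binds iron carriers, had 15901, 23087 and 6196 normalized counts in WT SP and 5491, 6998 and 7100.5 in Δβ SP. Nfkb1 had 4907, 4519 and 3678 against 4918, 3726 and 4085. Nfkbiz, chosen after its values were seen, had 2147, 1170 and 381 in WT SP against 187, 226 and 187 in Δβ SP (log2 difference -2.30, standard error 0.65, adjusted p = 0.218 from limma and 0.00285 from DESeq2). The Nfkbiz difference was -2.99 without WT SP replicate 3. In BM 24 of 39 were lower in Δβ (median -0.10, against -0.02 over all tested genes), and between SP and BM in WT 34 of 39 were higher in SP (median 0.65, or 0.91 without WT SP replicate 3, against -0.00). STAT3 targets of gp130 cytokines were lower in Δβ SP in 13 of 20 (65%, median -0.42, or -0.66 without WT SP replicate 3, 4 at an unadjusted p under 0.05, or 20%) and higher in SP than in BM in 16 of 20 in WT (median 0.87, or 1.12 without WT SP replicate 3). Mcl1 had 14250, 10311 and 5636 in WT SP against 5655, 4789 and 4543, and Fos had 17443, 16226 and 13632 against 4363, 12079 and 1988. Socs3, the feedback inhibitor of gp130 signaling, chosen after its values were seen, had 1442, 321 and 175 in WT SP and 83.7, 66.1 and 52.3 in Δβ SP.

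Without WT SP replicate 3, 41 genes of the lists were past the threshold in SP, and 26 between SP and BM in WT, where 5.21% of all tested genes were past it. In SP the list genes past it were 12 of 39 NF-kB targets, 9 of 31 relay genes and 6 of 16 genes for processing and release. With them were 5 of 19 decay genes, 5 of 20 STAT3 targets and 3 of 7 receptors. All of these were lower in Δβ. Of all 11476 tested genes in SP, 1345 were past the threshold and lower and 539 past it and higher, together 16.4%. Tnfaip3 and Birc3 stand in 2 lists. Ltb and Il18rap were lower and Tnfsf10 higher in the same fit, and none of the other IL-6 family ligands was past the threshold. The lists were written with earlier results of these data known, and WT SP replicate 3 was left out for its values. These shares are therefore no independent evidence. Without WT SP replicate 1 or 2 instead, 0 list genes were past the threshold in SP or between SP and BM in WT.

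**Figure D5:**
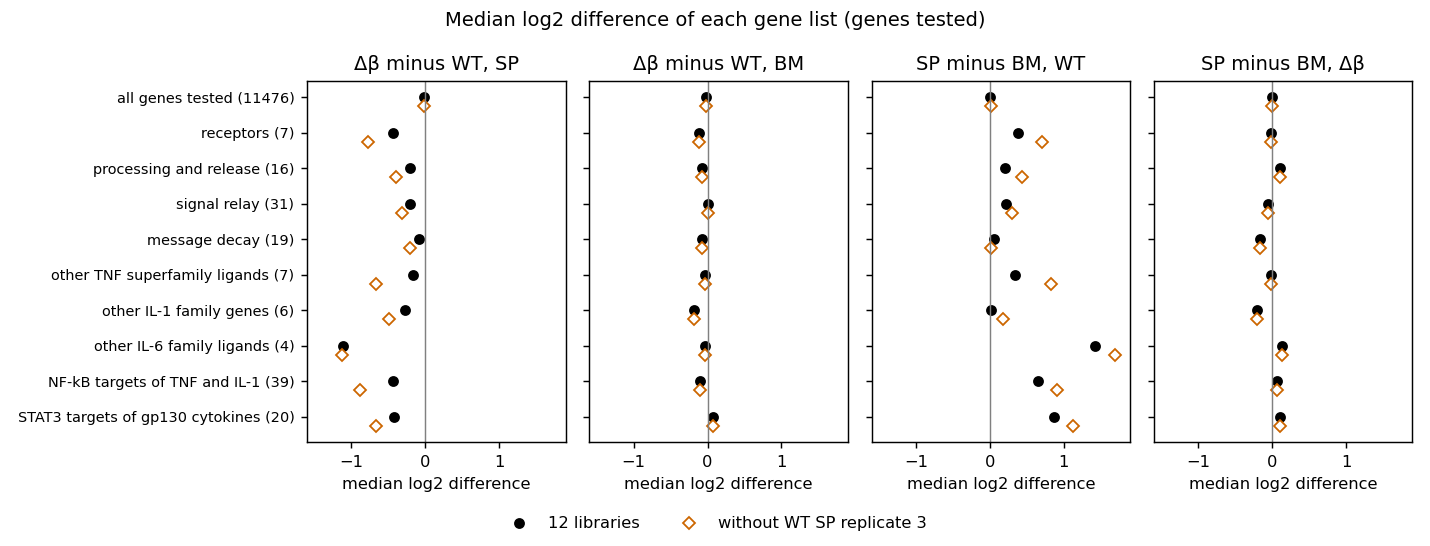
Median log2 difference over the tested genes of each list (number of genes in brackets) and over all tested genes, in 4 comparisons. Black points use all 12 libraries and open diamonds leave out WT SP replicate 3. In SP the NF-kB targets have a median of -0.44 against -0.01 for all tested genes, and in BM the same list has -0.10.

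Other markers differed between the libraries as well. Immediate early and heat shock genes, 20 of 20 in the table, summed to 94300 to 114732 normalized counts for WT SP, against 21074 to 63293 (Δβ SP), 21640 to 84436 (WT BM) and 26622 to 50762 (Δβ BM), so WT SP lay above all other libraries as a group of 3. Fos, Junb and Zfp36 of these genes also stand in the lists of STAT3 targets and message decay. By replicate, the sums in WT SP were 114732, 107491 and 94300, with 699.7, 705 and 463 normalized counts of Tnf. In Δβ SP they were 32073, 63293 and 21074, with 106, 173 and 106 of Tnf. In WT BM they were 36610, 21640 and 84436, with 373, 576 and 635 of Tnf. In Δβ BM they were 50762, 26622 and 36027, with 409, 224 and 292 of Tnf. The part of immediate early and heat shock genes in the Tnf difference was not tested. Mature neutrophil markers, 10 of 10 in the table with none at 0, summed to 205281, 331616 and 136505 for WT SP, and the ranges were 90987 to 113567 (Δβ SP), 138351 to 398068 (WT BM) and 110316 to 228969 (Δβ BM). Ly6g, the marker of neutrophils, had 606, 491 and 60.9 in WT SP, the same split as Il1b and Il1rn, and 68.2, 151 and 124 in Δβ SP. The part of neutrophil markers in the Il1b, Il1rn and Osm differences was not tested. By replicate, the neutrophil sums in WT BM were 150858, 138351 and 398068, the last being the highest of all libraries. In the same 3 libraries Il1b had 34.7, 13.5 and 63.4 normalized counts, Il1rn 240.1, 99.1 and 297, and Osm 101, 121 and 334.

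Markers of tissue macrophages, 12 of 12 in the table, summed to 8817, 6192 and 3059 in WT SP, in the order of Il1b, and to 3196 to 4780 (Δβ SP), 5785 to 8599 (WT BM) and 3898 to 5156 (Δβ BM) normalized counts in the other groups. C1qa, C1qc, Spic, Cd5l and Timd4, which define these cells, had means under 3 normalized counts over the 12 libraries. C1qa had 14.8 and C1qb 30.8 in WT SP replicate 1, the library highest in Il1b, and at most 3.04 and 4.27 in any other library. Vcam1 of the same list went the other way, with 699 in WT SP replicate 1 and 760.1 or more in each other library. The part of tissue macrophage markers in the Il1b, Il1rn and Osm differences was not tested. T and NK cell markers summed to 41.0 to 859 (WT SP, highest in replicate 3), 173 to 312 (Δβ SP), 100.3 to 378 (WT BM) and 152 to 709.9 (Δβ BM). B and plasma cell markers lay between 242 and 584, dendritic cell markers between 177 and 970.0, mast cell and basophil markers between 135 and 790.3, megakaryocyte and platelet markers between 63.1 and 144, and erythroid markers between 4.65 and 14.9 in every library. Endothelial and stromal markers summed to 1055 to 1202 (WT SP), 1406 to 2525 (Δβ SP) and 796 to 1879 (BM of both genotypes).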

How the data were processed

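Venus-sorted MLL-AF9 blasts of 2 genotypes and 2 organs were sequenced as poly-A libraries, 3 per group. The table that the authors deposited holds a signal value for each gene, namely its count scaled by the library's size factor. The submitters' processing notes name FastQC, STAR, featureCounts and DESeq2 with GRCm38 and mm10, with no versions or settings. All values were whole multiples of the value of 1 read within 0.01 (100%), which gave back the reads. A further 6 value columns, for cells without a sample label, were not used.

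The 11476 genes whose mean over 12 libraries reached 10 were fitted with limma 3.58.1 (trend, R 4.3.3) on log2(normalized count + 1), with 4 group means, 5 contrasts and Benjamini-Hochberg adjustment. The study's text names gene set enrichment analysis for these data, and not the test behind its calls of single genes. Alternatives were pseudocounts of 0.25 and 4, no filter, a minimum mean of 50, TMM, edgeR 4.0.16 (quasi-likelihood), DESeq2 1.42.0, only the libraries compared, a replicate block and each library left out. The fits were tested on simulated data. Deviations from group means of same-numbered Δβ SP and Δβ BM libraries correlated across genes at 0.66, 0.61 and 0.63, and those of other numbers at -0.49 to -0.18, so the labels' numbers pair these. The main fit and its standard errors do not use this pairing. In the other pairs of groups, same-numbered libraries correlated at -0.24 to 0.20, so no pairing was shown for them.

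The members, the lists and the tests were chosen with earlier results of these data known. Named list genes are those past the threshold (up to 5 per list and comparison) or else the 2 with the highest mean, and for each member the 5 genes with the highest r. Lengths and positions are from GENCODE M21 and promoters from RefSeq.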

Additional observations from a re-analysis of the deposited data

How the results depend on the processing

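In SP, the 12 genes past the threshold between genotypes became 1 with a pseudocount of 0.25, 5 without the filter, 2 with a minimum mean of 50, 3 with TMM, 5 with edgeR, 479 with DESeq2 and 2 with only the libraries compared. The number of members past it (1, Tnf) became 0 with a pseudocount of 0.25, with only the libraries compared and with the replicate block, and the number of list genes (0) became 19 with DESeq2. In BM, the 8 genes became 37 with DESeq2 and 3 with only the libraries compared. DESeq2 called 106 genes, 1 member (Il1b) and 9 list genes between SP and BM in WT, 2 genes between SP and BM in Δβ and 5 for the difference between organs, where limma called 0.

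The labels of the genotype comparisons share only replicate numbers. With the replicate block the counts were 2 genes in SP and 5 in BM, and in the paired Δβ comparison of SP with BM the count of calls stayed at 0.

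Leaving out 1 library at a time gave 1 to 1884 genes in SP, 0 to 2 members and 0 to 41 list genes. It gave 1 to 13 genes in BM, and 0 to 598 genes, 0 to 1 members and 0 to 26 list genes between SP and BM in WT. The upper ends in SP and in WT are those without WT SP replicate 3. The highest count in BM, 13, is that without WT SP replicate 1, and the lowest, 1, that without Δβ BM replicate 1 or 2. The cause of these changes was not tested. The medians of 3 lists moved by more than the spread between libraries, the other TNF superfamily ligands in SP (to -0.99) and the other IL-6 family ligands between the WT organs (to -0.08), both with a minimum mean of 50, and message decay for the difference between organs (to -0.34 without Δβ BM replicate 2).

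With 3 libraries a group and a residual spread of 1.47 for Il1b, these data place its differences poorly. Il1a, with at most 7 reads in a library, could not be compared at this depth.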
